A study of Homo sapiens with 6 samples.

Results

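The genes that carry out and control vesicle fusion were examined as a group in A549 cells lacking RAVER1. Members were the protein-coding rows whose symbols belong to the synaptotagmins (SYT), synaptotagmin-like proteins (SYTL), syntaxins (STX), syntaxin-binding proteins (STXBP), vesicle-associated membrane proteins (VAMP), SNAP23, SNAP25, SNAP29 and SNAP47, the UNC13 family, RAB27A, RAB27B and the RAB3 family. This symbol rule found 66 genes among 60624 rows, of which 19941 were protein coding. A549 is a human lung cancer cell line. RAVER1, an RNA-binding protein and cofactor of the splicing regulator PTBP1, had been deleted in it with CRISPR/Cas9. PolyA RNA was sequenced from 3 libraries of RAVER1 knockout cells, which carry the label KO2, and from 3 libraries of parental cells with intact RAVER1. The labels do not say whether KO2 is 1 clone, so the p-values describe the spread between libraries and not between independently made knockout lines. The labels name no other treatment or allele in either group.

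Membrane fusion in cells is driven by SNARE proteins. A VAMP on the vesicle pairs with a syntaxin and a SNAP protein on the target membrane, and the helices zip into a bundle that pulls the membranes together. SM proteins hold syntaxins and guide assembly, UNC13 proteins open syntaxin and prime vesicles, synaptotagmins couple many fusion events to calcium, and the GTPases RAB3 and RAB27 recruit tethers such as the synaptotagmin-like proteins to the vesicle. In lung epithelium this machinery serves mucin and surfactant secretion, receptor delivery and extracellular vesicle release, whereas several members are best known from neurons and cytotoxic lymphocytes.

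Library totals ran between 31200927 and 39910127 counts in the knockout libraries and between 29811747 and 34359060 counts in the parental libraries. RAVER1 itself was measured at 110, 112 and 79 counts in the knockout libraries, against 2510, 1996 and 2285 counts in the parental libraries. Its level was 2.73 ± 0.165 CPM (read counts scaled to a common library size) in knockout and 69.7 ± 3.80 CPM in parental libraries (SD, n = 3 each). The log2 fold change was thus -4.67 (edgeR adjusted p = 1.24e-18, SE 0.0786). The deleted gene was low in each library labelled knockout and high in each library labelled parental. The 5 epithelial keratin and junction markers KRT7, KRT8, KRT18, EPCAM and CDH1 were all detected, with a summed level of 6363 to 7035 CPM in knockout and 8277 to 9115 CPM in parental libraries. KRT7 rose (log2 fold change 0.55), while KRT8 (-0.73), KRT18 (-0.94), EPCAM (-1.70) and CDH1 (-2.20) fell, each with an edgeR adjusted p under 0.05. Of 8 leukocyte markers, CD3E, PRF1, GZMB and NKG7 had no count in any library, and the summed level of the list was 3.97 to 5.22 CPM in knockout and 5.11 to 5.81 CPM in parental libraries. CD14 held most of these sums, at 4.51 ± 0.677 CPM in knockout and 5.49 ± 0.382 CPM in parental libraries (SD, n = 3 each). It alone was tested and did not pass (log2 fold change -0.28, edgeR adjusted p = 0.0704). CD14 passed as lower with upper-quartile scaling (-0.32), with replicate number as a block (-0.29) and without knockout replicate 1 (-0.40). The part of these markers in the values of the exocytosis genes was not tested.

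Of the 66 genes, 54 had enough counts to be tested. Among these, 14 rose and 15 fell in the knockout (edgeR quasi-likelihood test, adjusted p under 0.05 over all 16652 genes tested), and 25 did not pass. The share past the threshold was 53.7%, beside 41.4% of all tested genes and 46.7% of protein-coding genes. The shares of all tested genes that rose or fell were 21.3% and 20.1%. The median log2 fold change of the tested members was -0.049, beside 0.0019 over all genes tested. The median size of the log2 fold change without its sign was 0.275 in the members and 0.192 over all genes. In 34 of the 54 the 3 knockout values did not overlap the 3 parental values, a separation also found in 50.2% of all tested genes. An absolute log2 fold change of at least 1 was reached by 8 members and by 6.88% of all tested genes, and 15 members passed the threshold with at least 0.5, as did 17.2% of all tested genes. SYTL5 and SYT9 reached the count filter through the libraries of 1 group, parental and knockout in turn. Among the 52 members over the filter level in every library, 13 rose and 14 fell, which is 51.9% beside 42.1% of all genes over that level in every library. At 10 CPM or more over all libraries 20 of 36 members passed, beside 47.8% of tested genes at that level, and below 10 CPM 9 of the 18 tested passed, beside 33.1%. The counts of the whole family summed to 1217 to 1247 CPM in knockout and 1396 to 1410 CPM in parental libraries. In these sums UNC13D had 6.30 CPM in knockout and 115 CPM in parental libraries, and SYT13 had 97.5 and 188 CPM in turn. RAB3B went the other way, with 89.8 CPM in knockout and 33.5 CPM in parental libraries. The sums weigh abundant genes most and do not describe a fall across the family, in which 14 genes rose and 15 fell. In RNA from bulk cultures, fewer cells that express a gene and less RNA per cell cannot be told apart.

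**Figure D1:**
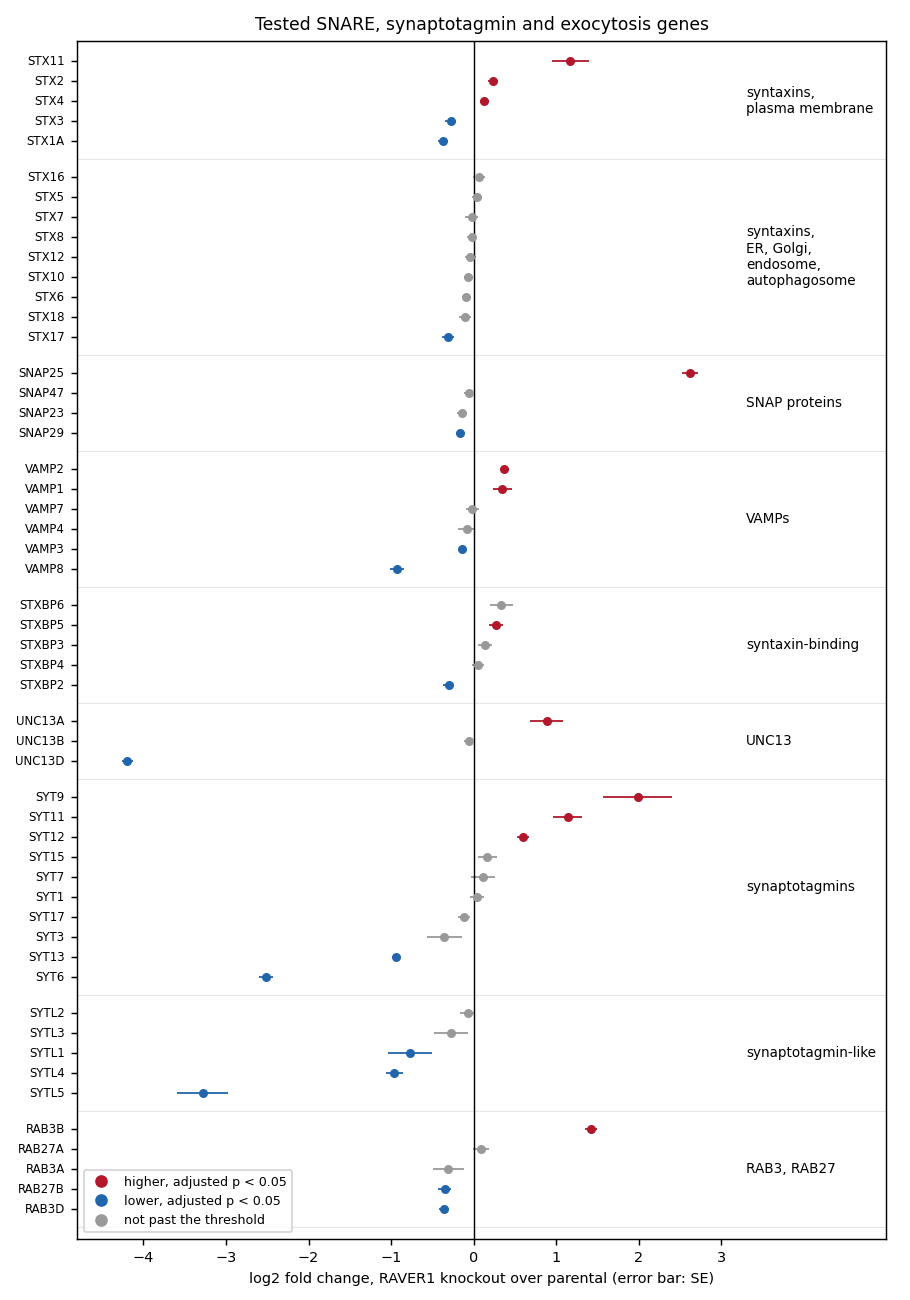
Log2 fold change of 52 of the tested genes, RAVER1 knockout over parental (x axis), with its SE as an error bar and the genes grouped by role down the page. Red points rose, blue points fell and grey points did not pass an edgeR adjusted p under 0.05. UNC13D at -4.20 and SNAP25 at 2.62 lie at the ends, and the syntaxins of internal membranes stay close to 0.

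The syntaxins of the plasma membrane are the target-membrane SNAREs of exocytosis. Members of this group passed the threshold in both directions. STX11, a syntaxin without a membrane anchor that is needed for granule release by cytotoxic lymphocytes, had 1.47, 1.33 and 1.22 CPM in knockout libraries, against 0.700, 0.527 and 0.554 CPM in parental libraries. The groups did not overlap and the log2 fold change was 1.17 (SE 0.222, edgeR adjusted p = 0.000295), at a level near 1 CPM. STX1A, known from nerve terminals and endocrine cells, moved the other way, with 24.6, 22.1 and 23.8 CPM in knockout libraries, against 30.2, 30.5 and 30.2 CPM in parental libraries. Its groups were also separate (log2 fold change -0.37, SE 0.0609, edgeR adjusted p = 7.34e-05). The remaining changes were smaller. STX2 rose by 0.24 (edgeR adjusted p = 0.00758), and STX3, which serves apical delivery in epithelia, fell by 0.28 (edgeR adjusted p = 0.00174). STX4, which serves basolateral delivery, rose by 0.13 at the edge of the threshold (edgeR adjusted p = 0.0409). The STX4 call was lost with upper-quartile scaling (0.099), with RLE scaling, without the count filter, in DESeq2 (adjusted p = 0.0776) and without knockout replicate 2 (0.12) or 3 (0.15) or any 1 of parental replicates 1 (0.15), 2 (0.12) and 3 (0.12).

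Syntaxins of the endoplasmic reticulum, Golgi, endosomes and autophagosomes showed smaller differences. Of 9 tested, STX17 passed the threshold and none rose, so 11.1% passed, beside 41.4% of all tested genes. STX17, the autophagosomal syntaxin that acts with SNAP29 and VAMP8 in fusion with lysosomes, had 18.9, 23.2 and 22.2 CPM in knockout libraries, against 25.4, 27.4 and 27.0 CPM in parental libraries. The groups did not overlap, and the gene fell by 0.31 on the log2 scale (SE 0.0739, edgeR adjusted p = 0.00219). Its named partners fell as well, SNAP29 by 0.16 and VAMP8 by 0.93, beside 20.1% of all tested genes that fell. The SNAP29 call was lost without knockout replicate 3 or parental replicate 1. STX5, STX6, STX7, STX8, STX10, STX12, STX16 and STX18 did not pass, with log2 fold changes between -0.10 (STX18) and 0.065 (STX16). STX10, a Golgi syntaxin, had the highest level per exon length among the syntaxins. It had 50.0, 45.6 and 49.4 CPM in knockout libraries, against 51.3, 50.6 and 49.9 CPM in parental libraries, and the groups overlapped.

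SNAP25, the neuronal and endocrine partner of the plasma membrane syntaxins, rose more than any other tested member. It lies on chromosome 20 (10218830 to 10307418, plus strand) and had 20.2, 19.5 and 18.8 CPM in knockout libraries, against 3.35, 3.49 and 2.68 CPM in parental libraries. The knockout values were tightly grouped and far above the parental ones, with means of 19.5 ± 0.708 and 3.17 ± 0.435 CPM in knockout and parental libraries (SD, n = 3 each), a 6.14-fold difference (log2 fold change 2.62, SE 0.0972, edgeR adjusted p = 1.1e-13). The antisense row SNAP25-AS1, whose exons do not overlap those of SNAP25 in GENCODE release 29, held 12, 13 and 10 counts in knockout libraries and 3, 3 and 2 counts in parental libraries. The ubiquitous paralog SNAP23 had 27.0, 28.8 and 26.7 CPM in knockout libraries, against 28.5, 31.6 and 31.1 CPM in parental libraries. Its groups overlapped and it did not pass (log2 fold change -0.14, edgeR adjusted p = 0.0728). It passed with upper-quartile scaling (-0.18), without knockout replicate 2 (-0.18) and without parental replicate 1 (-0.19). SNAP29, the member of endosomes and autophagosomes, had 45.1, 45.8 and 46.1 CPM in knockout libraries, against 52.2, 50.2 and 50.5 CPM in parental libraries. It fell by 0.16 (SE 0.0505, edgeR adjusted p = 0.0171), a call lost without knockout replicate 3 (-0.16) or parental replicate 1 (-0.14). SNAP47 did not pass (-0.060).

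SNAP25 is also used as a neuronal and neuroendocrine gene, so markers of those cell types are given with it. Of 8 neuroendocrine markers 4 were tested, and CHGA alone among them passed, at 0.605 ± 0.0761 CPM in knockout and 0.203 ± 0.0663 CPM in parental libraries (SD, n = 3 each). CHGA reached the count filter only through the knockout libraries. It had 20, 26 and 20 counts in knockout libraries, against 9, 4 and 7 counts in parental libraries. INSM1 had no count in any library, and the list summed to 7.60 to 8.51 CPM in knockout and 7.47 to 8.34 CPM in parental libraries. Of 7 neuronal markers 3 were tested. RBFOX3 rose by 0.46 and NEFL rose by 0.76, while DLG4 did not pass (log2 fold change 0.10, edgeR adjusted p = 0.252). STMN2 and ELAVL4 had no count in any library. The NEFL call was lost in DESeq2 (adjusted p = 0.137) and without knockout replicate 1 (0.72), knockout replicate 2 (0.64) or parental replicate 3 (0.61). The neuronal list summed to 30.5 to 33.1 CPM in knockout and 25.6 to 29.2 CPM in parental libraries. DLG4 held the largest part of these sums, at 21.4 ± 0.355 CPM in knockout and 19.9 ± 1.43 CPM in parental libraries (SD, n = 3 each). The part of these genes in the SNAP25 result was not tested.

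Among the vesicle SNAREs, 2 rose, 2 fell and 2 did not pass, so 66.7% of those tested passed, beside 41.4% of all tested genes. VAMP8, which serves endosomal and lysosomal fusion and regulated secretion in many epithelia, had 10.4, 8.75 and 9.57 CPM in knockout libraries, against 18.8, 17.1 and 18.7 CPM in parental libraries. The groups were clearly separate, at 9.57 ± 0.825 CPM in knockout and 18.2 ± 0.935 CPM in parental libraries (SD, n = 3 each), with a log2 fold change of -0.93 (SE 0.0809, edgeR adjusted p = 2.4e-08). VAMP8 lies on chromosome 2 (85561562 to 85582031), where the median log2 fold change of the 1125 tested genes was 0.42. Of those genes 752 rose and 63, or 5.6%, fell, VAMP8 among them. VAMP2, the main vesicle SNARE of regulated exocytosis, had 36.8, 34.0 and 33.7 CPM in knockout libraries, against 26.8, 26.9 and 26.9 CPM in parental libraries. It rose by 0.37 with no overlap between groups (SE 0.0584, edgeR adjusted p = 3.78e-05). VAMP1, its close paralog, rose by 0.35 (edgeR adjusted p = 0.0166), but the call was lost without knockout replicate 3 (0.28) or parental replicate 1 (0.25). VAMP3, the cellubrevin of recycling endosomes, had the highest level per exon length of the VAMPs, and had 88.4, 93.6 and 88.7 CPM in knockout libraries, against 99.5, 100.19 and 98.1 CPM in parental libraries. It fell by 0.14 (SE 0.0444, edgeR adjusted p = 0.0186), a call lost without knockout replicate 3 (-0.12), parental replicate 1 (-0.14) or parental replicate 2 (-0.13). VAMP4 (-0.083) did not pass, nor did VAMP7 (-0.016), a gene of a pseudoautosomal region.

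Syntaxin-binding proteins steer or block the assembly of SNARE complexes. STXBP2 (Munc18-2), the partner of STX3 and STX11, averaged 16.1 ± 1.04 CPM in knockout and 19.8 ± 0.432 CPM in parental libraries (SD, n = 3 each). It fell by 0.30 (SE 0.0694, edgeR adjusted p = 0.00164), while its partners went apart, STX3 down and STX11 up. STXBP5 (tomosyn), an inhibitor that occupies target SNAREs, rose by 0.27 (edgeR adjusted p = 0.0122), a call lost without knockout replicate 2 (0.20) or parental replicate 3 (0.21). STXBP3 (Munc18c), the partner of STX4, did not pass (0.14) except without knockout replicate 1 (0.24), and STXBP6 (amisyn) did not pass (0.34) except without knockout replicate 1 (0.41). STXBP4 did not pass (0.056).

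UNC13D had the largest absolute log2 fold change of the 54 tested members. It encodes Munc13-4, which tethers and primes RAB27-bearing granules and is known for its role in cytotoxic lymphocytes, platelets and mast cells, and for mucin secretion in airways. The gene (chromosome 17, 75827225 to 75844717, minus strand) had 6.41, 6.23 and 6.25 CPM in knockout libraries, against 121, 108 and 117 CPM in parental libraries. The knockout values were nearly alike, at 6.30 ± 0.0999 CPM beside 115 ± 7.12 CPM in parental libraries (SD, n = 3 each), and amounted to 5.46% of the parental level (log2 fold change -4.20, SE 0.0666, edgeR adjusted p = 7.59e-19). No other annotated gene shares exon positions with UNC13D. UNC13B (Munc13-2), a paralog with calcium- and lipid-regulated priming activity, had 44.7, 41.8 and 44.8 CPM in knockout libraries, against 45.0, 45.6 and 46.2 CPM in parental libraries, and did not pass (log2 fold change -0.059, edgeR adjusted p = 0.408). UNC13A (Munc13-1), the synaptic priming factor, had 1.37, 1.71 and 1.80 CPM in knockout libraries, against 0.817, 0.790 and 1.02 CPM in parental libraries. It rose by 0.89 with separate groups (SE 0.203, edgeR adjusted p = 0.00166), at a low level in both. UNC13C had no count in any library.

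**Figure D2:**
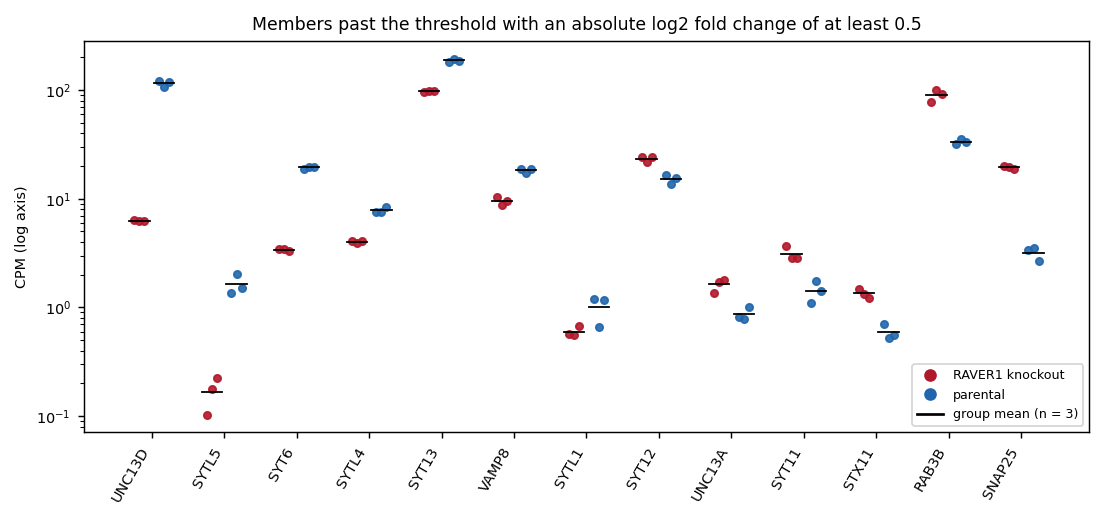
CPM of 13 genes past an edgeR adjusted p under 0.05 with an absolute log2 fold change of at least 0.5 whose higher group reached 1 CPM (y axis, log scale), with each library as a point, knockout in red left of parental in blue, and the group mean as a line (n = 3 each). The groups of UNC13D, SYT6, SNAP25 and RAB3B are far apart, and those of SYTL1 overlap, with a parental value of 0.658 CPM below the highest knockout value of 0.676 CPM.

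Synaptotagmins carry tandem C2 domains, and in some members these bind calcium. Of 10 tested, 3 rose, 2 fell and 5 did not pass, so 50% passed, beside 41.4% of all tested genes. SYT13, an atypical member that does not bind calcium, had the highest level per exon length in its family, with 96.3, 97.6 and 98.6 CPM in knockout libraries, against 182, 195 and 187 CPM in parental libraries. It averaged 97.5 ± 1.17 CPM in knockout and 188 ± 6.61 CPM in parental libraries (SD, n = 3 each), and fell by 0.94 on the log2 scale (SE 0.043, edgeR adjusted p = 2.18e-12). SYT6, known for acrosomal exocytosis in sperm, had 3.44, 3.44 and 3.32 CPM in knockout libraries, against 18.9, 19.7 and 19.7 CPM in parental libraries. Both groups varied little, at 3.40 ± 0.0712 CPM in knockout and 19.5 ± 0.480 CPM in parental libraries (SD, n = 3 each), and the log2 fold change was -2.51 (SE 0.0847, edgeR adjusted p = 2.75e-14).

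The synaptotagmins that rose were SYT9, SYT11 and SYT12. SYT12, another member that does not bind calcium, had 24.0, 21.7 and 24.1 CPM in knockout libraries, against 16.7, 13.8 and 15.5 CPM in parental libraries. The groups did not overlap (log2 fold change 0.60, SE 0.0767, edgeR adjusted p = 3.8e-06). SYT11, an atypical synaptotagmin of endosomes and the Golgi, had 3.65, 2.84 and 2.83 CPM in knockout libraries, against 1.11, 1.74 and 1.42 CPM in parental libraries. Again the groups were separate (log2 fold change 1.14, SE 0.178, edgeR adjusted p = 3.88e-05). SYT9, a calcium sensor of fast exocytosis, had 15, 18 and 13 counts in knockout libraries, against 4, 4 and 2 counts in parental libraries, which is under 1 CPM in all 6 libraries. Its log2 fold change was 1.99 (SE 0.418, edgeR adjusted p = 0.000773), and it reached the count filter only through the knockout libraries. The calcium sensors SYT1 (0.042), SYT3 (-0.36) and SYT7 (0.12) did not pass, and neither did SYT15 (0.17) or SYT17 (-0.11). RefSeq lists a paralog of SYT15 on the same chromosome, SYT15B, so the SYT15 value is uncertain.

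Synaptotagmin-like proteins bind GTP-loaded RAB27 at their N-terminus and membranes through their C2 domains. All 5 were tested, none rose, 3 fell and 2 did not pass, beside 20.1% of all tested genes that fell. Of the 3 that fell, SYTL5 reached the count filter only through the parental libraries. SYTL5 had 4, 7 and 7 counts in knockout libraries, against 47, 62 and 49 counts in parental libraries. These correspond to 0.103, 0.176 and 0.226 CPM in knockout libraries, against 1.37, 2.04 and 1.51 CPM in parental libraries, with a log2 fold change of -3.28 (SE 0.31, edgeR adjusted p = 7.24e-08). SYTL4 (granuphilin), the RAB27A effector of insulin granules, had 4.09, 3.90 and 4.06 CPM in knockout libraries, against 7.56, 7.47 and 8.37 CPM in parental libraries. The groups were separate, and SYTL4 fell by 0.96 (SE 0.101, edgeR adjusted p = 3.21e-07). SYTL1, linked to granule release in leukocytes, had 0.569, 0.553 and 0.676 CPM in knockout libraries, against 1.20, 0.658 and 1.17 CPM in parental libraries. The groups overlapped, and its log2 fold change of -0.77 (SE 0.265, edgeR adjusted p = 0.026) did not pass in DESeq2 (adjusted p = 0.129) or without knockout replicate 1 (-0.74), knockout replicate 2 (-0.71), parental replicate 1 (-0.63) or parental replicate 3 (-0.66). SYTL2, which had 7.19, 6.76 and 7.22 CPM in knockout libraries and 6.86, 7.97 and 7.45 CPM in parental libraries, did not pass (-0.072), and SYTL3 did not pass (-0.28). The 5 genes summed to 12.4 to 13.8 CPM in knockout and 18.6 to 20.2 CPM in parental libraries.

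RAB3 and RAB27 mark secretory vesicles and recruit the effectors above. RAB3B, a vesicle GTPase found in epithelia and the pituitary, lies on chromosome 1 (51907956 to 51990764, minus strand) and had 77.7, 100.13 and 91.4 CPM in knockout libraries, against 32.1, 35.1 and 33.4 CPM in parental libraries. Even the lowest knockout library was well above the highest parental library. The means of 89.8 ± 11.3 CPM in knockout and 33.5 ± 1.53 CPM in parental libraries (SD, n = 3 each) gave a 2.68-fold difference (log2 fold change 1.42, SE 0.0742, edgeR adjusted p = 1.63e-11). RAB3D, known from zymogen and other exocrine granules, had 28.4, 24.1 and 25.9 CPM in knockout libraries, against 33.3, 33.8 and 33.3 CPM in parental libraries. It fell by 0.36 with separate groups (SE 0.0645, edgeR adjusted p = 0.000175). RAB27B, which acts in granule and extracellular vesicle release, had 19.1, 24.4 and 24.2 CPM in knockout libraries, against 27.0, 30.1 and 29.2 CPM in parental libraries, and fell by 0.35 (SE 0.0818, edgeR adjusted p = 0.00189). RAB27A, the paralog of RAB27B, did not pass (0.090), nor did the neuronal RAB3A (-0.31).

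Exons of some members share positions with other genes in GENCODE release 29, and the strand setting of the counting is not given in the sources used here. Values of these members are therefore uncertain. Among the genes that changed, this holds for RAB3D with TMEM205 on the same strand and with CCDC159 on the opposite strand. On the opposite strand it also holds for STX1A with BUD23, SYTL4 with SRPX2, SNAP29 with PI4KA and VAMP1 with TAPBPL. STX2, STX3, STX17, STXBP2, STXBP5, SYT9, SYT13, VAMP2 and RAB27B share exon positions with unnamed, antisense or olfactory receptor loci. The antisense row STXBP5-AS1 held 2, 3 and 4 counts in knockout libraries and 1, 1 and 3 counts in parental libraries, and STX17-AS1 held 9, 6 and 6 counts in knockout libraries and 6, 5 and 2 counts in parental libraries. UNC13D, SNAP25, SYT6, RAB3B, VAMP8, SYT11, STX11, UNC13A and SYTL5 share exon positions with no annotated gene.

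The remaining 12 genes stayed below the filter, and their highest count in any library was 9. STXBP5L, SYT4, SYT10 and UNC13C had no count in any library. SYT14 had 5, 5 and 9 counts in knockout libraries and 2, 3 and 3 counts in parental libraries. SYT16 had 1, 6 and 3 counts in knockout libraries and 0, 0 and 1 counts in parental libraries. RAB3C, SYT2, SYT5, SYT8, STX19 and VAMP5 were similarly sparse, and differences of this size were not detectable at this depth.

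Upstream sequence was available in RefSeq (GRCh38.p14) for 54 of the 66 genes. Of 7 genes with an absolute log2 fold change of at least 1 and a call in the test whose higher group reached 1 CPM, RAB3B, STX11, SYT6, SYTL5 and SYT11 had an entry, and UNC13D and SNAP25 had none. The sequences are shown because these genes had the largest changes with an entry, in both directions, and to show which short motifs lie upstream of them. Each covers 180 bases, between 250 and 71 bases before the gene's start in RefSeq, 5′ to 3′ on the gene's strand, and overlaps no annotated exon. These RefSeq starts differ from the GENCODE starts, so the distances do not hold for the GENCODE positions. SYT11 is not shown because its window overlaps an annotated exon. Capitals mark every match on either strand to CAGGTG (an E-box), TGANTCA (a relaxed form of the AP-1 motif, N being any base) or GGGCGG (a GC box). The matches do not overlap one another here. RefSeq lists 3 such windows for SYT6 and 2 for SYTL5, of which 1 each is shown.
RAB3B, chr1:51990771-51990950, minus strand: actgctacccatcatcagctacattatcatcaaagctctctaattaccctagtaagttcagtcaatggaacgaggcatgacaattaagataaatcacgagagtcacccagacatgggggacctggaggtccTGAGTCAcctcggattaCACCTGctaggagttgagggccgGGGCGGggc
STX11, chr6:144150267-144150446, plus strand: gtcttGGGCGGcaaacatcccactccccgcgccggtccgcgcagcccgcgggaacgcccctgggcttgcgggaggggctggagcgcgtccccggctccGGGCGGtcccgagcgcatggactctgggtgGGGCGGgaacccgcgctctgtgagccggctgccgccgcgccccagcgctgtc
SYT6, chr1:114153940-114154119, minus strand: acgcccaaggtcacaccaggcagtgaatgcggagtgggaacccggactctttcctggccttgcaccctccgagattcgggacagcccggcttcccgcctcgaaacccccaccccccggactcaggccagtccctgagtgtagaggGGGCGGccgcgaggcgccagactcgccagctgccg
SYTL5, chrX:38006303-38006482, plus strand: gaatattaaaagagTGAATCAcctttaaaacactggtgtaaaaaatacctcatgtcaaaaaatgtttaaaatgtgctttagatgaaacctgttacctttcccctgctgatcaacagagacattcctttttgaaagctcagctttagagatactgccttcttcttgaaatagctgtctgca

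The RAB3B window holds 1 match each of CAGGTG (read as its reverse complement), TGANTCA and GGGCGG. The STX11 window holds 3 matches of GGGCGG, the SYT6 window holds 1 match of GGGCGG, and the SYTL5 window holds 1 match of TGANTCA. Over 35116 RefSeq windows of the same position and length, 13.7% held CAGGTG, 4.68% held TGANTCA and 31.3% held GGGCGG. A match says that these letters are present and shows neither binding nor use. Genes that rose (RAB3B, STX11) and genes that fell (SYT6, SYTL5) shared GGGCGG and TGANTCA across the directions. The TGANTCA matches differed in the middle base, TGAGTCA in RAB3B and TGAATCA in SYTL5.

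Levels of different genes were compared after division by exon length (RPKM, with the length column of the deposited table), as shares of each family's summed RPKM. In the UNC13 family, UNC13D made up 24.0%, 24.4% and 23.2% in knockout libraries, against 85.8%, 84.1% and 85.0% in parental libraries. UNC13B took the leading place in knockout libraries, with 71.8% ± 0.779 in knockout and 14.6% ± 0.835 in parental libraries (SD, n = 3 each). The order was the same with the longest transcript as length, which gave UNC13D 31.1% in knockout and 89.1% in parental libraries. In the SNAP family, SNAP25 made up 21.4% ± 0.562 in knockout and 3.91% ± 0.527 in parental libraries. With the length column SNAP25 stood above SNAP23 in knockout libraries (5.80 and 4.70 RPKM), whereas with the longest transcript it stood below (8.64 and 10.2 RPKM), so their order there depends on the length used. In the RAB3 family, RAB3B made up 51.2% ± 5.49 in knockout and 23.5% ± 0.735 in parental libraries, and RAB3D 43.5% ± 4.49 in knockout and 68.4% ± 0.798 in parental libraries. RAB3D was ahead in each parental library, RAB3B was ahead in knockout libraries 2 and 3, and in knockout library 1 RAB3D (48.3%) stayed above RAB3B (45.3%).

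The synaptotagmins and the VAMPs kept their leading member. SYT13 led the synaptotagmins with 68.6% ± 0.850 in knockout and 77.0% ± 0.352 in parental libraries (SD, n = 3 each). VAMP3 led the VAMPs with 49.7% in knockout and 47.4% in parental libraries, and behind it VAMP8 made up 16.1% in knockout and 26.5% in parental libraries, beside VAMP2 with 16.2% in knockout and 10.8% in parental libraries. Among the synaptotagmin-like genes, SYTL2 made up 34.9% in knockout and 23.3% in parental libraries, and SYTL4 made up 30.1% in knockout and 37.2% in parental libraries. By mean share SYTL2 led in knockout and SYTL4 in parental libraries, with both lengths. In RPKM, VAMP3 had 33.0 in knockout and 36.3 in parental libraries, STX10 had 26.9 in knockout and 28.2 in parental libraries, and SYT13 had 17.9 in knockout and 34.5 in parental libraries. SNAP29 had 9.28 RPKM in knockout and 10.3 RPKM in parental libraries, and RAB27B had 3.15 RPKM in knockout and 4.02 RPKM in parental libraries. Which gene led the SNAP family depended on the length used. By mean share, RAB27B led the RAB27 family in parental libraries with both lengths (68.5% and 56.9%). In knockout libraries it led with the length column (61.4%) but not with the longest transcript (49.1%).

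**Figure D3:**
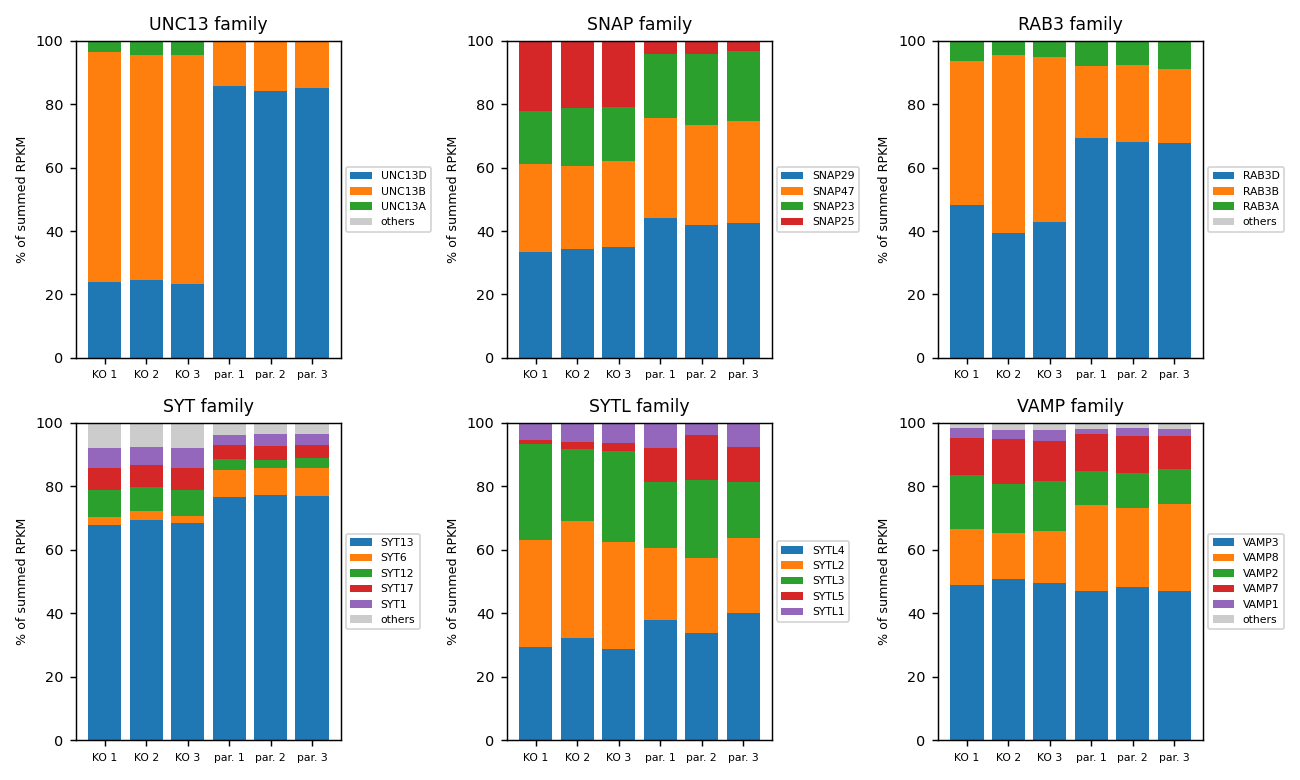
Share of each gene in the summed RPKM of its family (y axis, percent), 1 bar per library with the 3 knockout libraries left of the 3 parental ones, for 6 families. UNC13D fills 23.2% to 24.4% of the UNC13 bars in knockout and 84.1% to 85.8% in parental libraries, and SNAP25 and RAB3B widen in the knockout bars.

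A list of 76 further genes of membrane fusion and exocytosis, outside the symbol rule, places these values in the wider pathway. Of 64 tested, 12 rose and 10 fell in the knockout, which is 34.4% beside 41.4% of all tested genes, and the median log2 fold change was 0.0028. With upper-quartile scaling 10 rose and 16 fell. Of 12 other SNAREs, VTI1A fell (-0.17, a call lost without knockout replicate 3 (-0.16) or parental replicate 2 (-0.15) or 3 (-0.19)) and none rose, and no call was made among the 5 other SM proteins. Of the 4 NSF and SNAP adaptor genes NAPB rose (0.29) and NSF fell (-0.20). The NAPB call was lost with upper-quartile scaling (0.25), in DESeq2 (adjusted p = 0.127) and without knockout replicate 1 (0.26) or 3 (0.27) or parental replicate 2 (0.28) or 3 (0.26). The NSF call was lost in DESeq2 (adjusted p = 0.0672), in the fit without chromosome 2 (-0.18) and without knockout replicate 2 (-0.10) or parental replicate 1 (-0.20), 2 (-0.17) or 3 (-0.22). Of 11 exocyst genes tested, EXOC6B rose (0.31), and EXOC6 (-0.50) and EXOC4 (-0.12) fell. The EXOC4 call was lost without the count filter (-0.12), in DESeq2 (adjusted p = 0.0528), in the fit without chromosome 2 (-0.10) and without knockout replicate 2 (-0.12) or 3 (-0.11) or parental replicate 2 (-0.097) or 3 (-0.13).

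Both complexins tested passed the threshold, in opposite directions. CPLX2, a complexin that clamps assembled SNARE complexes, had 861, 647 and 733 CPM in knockout libraries, against 1215, 1226 and 1183 CPM in parental libraries. The groups were separate (log2 fold change -0.69, SE 0.068, edgeR adjusted p = 1.2e-07). CPLX1 was scored higher at 1.08 ± 0.291 CPM in knockout and 0.667 ± 0.174 CPM in parental libraries (SD, n = 3 each, log2 fold change 0.67, edgeR adjusted p = 0.05 when rounded, just under the threshold), with overlapping groups. That call was lost with upper-quartile scaling (0.64), in DESeq2 (adjusted p = 0.173) and limma-voom (adjusted p = 0.0641), and without knockout replicate 1 (0.68) or 3 (0.48) or parental replicate 1 (0.61) or 2 (0.53). RIMS4, of the RIM family of active zone scaffolds, had 5.74, 4.27 and 4.61 CPM in knockout libraries, against 2.13, 2.37 and 2.25 CPM in parental libraries (log2 fold change 1.12, edgeR adjusted p = 3.17e-06). DOC2B, a C2-domain calcium sensor that binds UNC13 proteins, had 2.17, 1.46 and 2.38 CPM in knockout libraries, against 0.817, 0.592 and 0.615 CPM in parental libraries (log2 fold change 1.54, edgeR adjusted p = 2.73e-05). BAIAP3, a relative of UNC13, fell by 0.72 (edgeR adjusted p = 0.00316). Exons of RIMS4 and BAIAP3 share positions with KCNK15 and TSR3 on the opposite strand.

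RAB3IL1 and RAB3IP, paralogous exchange factors best known for acting on RAB8, passed in opposite directions, while MADD, an exchange factor for RAB3, did not pass (log2 fold change 0.034, edgeR adjusted p = 0.597). RAB3IL1 had 25.8, 24.1 and 25.3 CPM in knockout libraries, against 15.2, 13.3 and 14.9 CPM in parental libraries (log2 fold change 0.79, edgeR adjusted p = 2.99e-08). RAB3IP had 7.71, 8.70 and 8.92 CPM in knockout libraries, against 12.4, 13.7 and 13.0 CPM in parental libraries (log2 fold change -0.63, edgeR adjusted p = 7.1e-06). EXPH5, a RAB27 effector related to the synaptotagmin-like proteins, had 10, 6 and 11 counts in knockout libraries, against 37, 57 and 62 counts in parental libraries (log2 fold change -2.69, edgeR adjusted p = 1.43e-06). EXPH5 was over the filter level in all 3 parental libraries but in only 1 knockout library. Of the other secretory RABs, RAB26 fell, with 8.28, 5.50 and 6.76 CPM in knockout libraries, against 12.3, 12.9 and 12.2 CPM in parental libraries (log2 fold change -0.87, edgeR adjusted p = 4.13e-06). RAB10, which serves basolateral and GLUT4 vesicle delivery, rose, with 442, 474 and 445 CPM in knockout libraries, against 272, 281 and 266 CPM in parental libraries (log2 fold change 0.73, edgeR adjusted p = 6.25e-11). RAB10, RAB3GAP1 (0.45), MLPH (0.46) and EXOC6B (0.31) lie on chromosome 2, where the median of all tested genes was 0.42, and the part of that shift in their values was not tested.

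**Figure D4:**
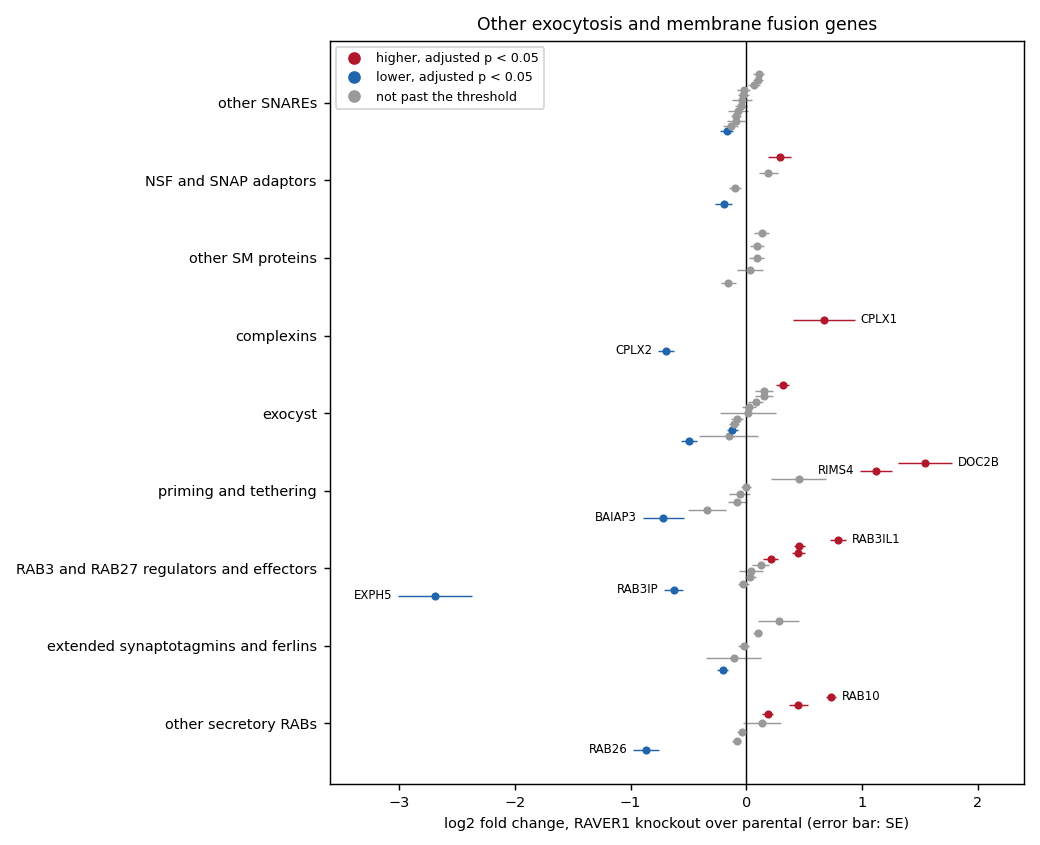
Log2 fold change, RAVER1 knockout over parental (x axis), of the 64 tested further exocytosis genes, grouped by list, with red for higher, blue for lower and grey for not past an edgeR adjusted p under 0.05. EXPH5 at -2.69 and DOC2B at 1.54 lie at the ends, and the other SNAREs and SM proteins stay near 0.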

How the data were processed

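PolyA RNA from 6 A549 cultures was sequenced, 3 RAVER1 knockout and 3 parental, and grouped by sample title. TRIzol extraction and a stranded Illumina mRNA kit were used, per the labels' protocols. The authors used cutadapt 2.8, HISAT2 2.1.0, SAMtools 1.10 and featureCounts 2.0.0 with hg38, per the submitters' processing notes. Raw counts per gene and library make up the deposited table, without normalization, beside a length column that served for RPKM. Not given in the sources used here are the annotation release, the strand setting and how multi-mapping reads were handled. The 37 mitochondrial rows were at 0 in every library.

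Counts were fitted with edgeR 4.0.16 (R 4.3.3). The filterByExpr step kept 16652 genes, TMM factors scaled the libraries, and the quasi-likelihood test compared knockout with parental, with Benjamini-Hochberg adjustment over all genes kept. CPM values use the TMM-scaled library sizes, and standard errors are the log2 fold change divided by the root of F. Per-length levels divide CPM by the length column or by the longest transcript of GENCODE release 29, which also gave positions and exon overlaps for all 66 genes. Replicates within a group differed by more than sampling noise (chi-square per degree of freedom 2.42 to 8.86 for genes where the pair summed to 20 counts or more), so each library counted once. Upstream sequences came from RefSeq GRCh38.p14.

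The members and the lists were chosen with earlier results of these data known. Members past the threshold are named, except 2 that are not reported here though they are included in the counts, with values per library where the absolute log2 fold change was at least 0.5 and the higher group had at least 1 CPM, and for each family's most abundant gene per length; VAMP2, STX1A, STX17, SNAP23, UNC13B and other genes with values per library beyond that rule were added after their values were seen. Of the further exocytosis genes, those past the threshold with at least 0.5 were named, and VTI1A, NSF, NAPB, MADD, the exocyst genes and those on chromosome 2 were added after their values were seen. The alternatives tried were upper-quartile and RLE scaling, a filter of 1 CPM in 3 libraries or none, a block on replicate number, leaving out each library, the fit without chromosome 2, an adjusted p under 0.01, DESeq2 1.42.0 and limma-voom (limma 3.58.1). On simulated counts for this comparison, with 16410 genes tested, the edgeR step recovered 32 of 50 genes simulated with a 1.25-fold change, 35 of 49 with 1.5-fold, 42 of 45 with 2-fold and 47 of 48 with 4-fold, and called 21 of 16218 unchanged genes. Far more genes were called in the real libraries, and scaling under that condition was not simulated.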

Additional observations from a re-analysis of the deposited data

How the results depend on the processing

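No member, further exocytosis gene or listed marker past the threshold changed its direction in an alternative, and neither did RAVER1. Direction was not checked for the other tested genes. Among members that did not pass, STX5, STX7, STX12, STX16, VAMP4, VAMP7, SYT1, STXBP4 and RAB27A changed sign in at least 1, with values between -0.021 and 0.063. Among the tested SNARE, synaptotagmin and exocytosis genes, 11 to 14 rose and 12 to 16 fell across scaling, filters, DESeq2, limma-voom, the fit without chromosome 2 and an adjusted p under 0.01, against 14 and 15 as reported, and 12 to 16 rose and 13 to 15 fell with each library left out. Of the 29 genes past the threshold, 23 kept their call in each alternative at the 0.05 threshold that tested them, and 6 (VAMP1, VAMP3, STX4, STXBP5, SNAP29 and SYTL1) lost it in at least 1. The log2 fold change of UNC13D stayed between -4.24 and -4.16, that of SNAP25 between 2.50 and 2.69, that of SYT6 between -2.55 and -2.50 and that of RAB3B between 1.34 and 1.52. Of the 22 further exocytosis genes past the threshold, 7 lost the call somewhere. Their counts were 12 higher and 10 lower as reported, and 16 lower with upper-quartile scaling. Deviations of same-numbered libraries correlated at 0.129, 0.0293 and 0.0142 (Pearson's r across 16652 genes, which are not independent replicates), and not every library correlated best with its own number, so the samples share a number and are not taken as paired. With the number as a replicate block, 14 of the SNARE, synaptotagmin and exocytosis genes rose and 16 fell, SNAP23 passed (adjusted p = 0.0155), and 20 of the further exocytosis genes rose and 17 fell. With the longest transcript as length, family shares were 65.3% for UNC13B in knockout and 10.6% in parental libraries, 17.4% for SNAP25 in knockout and 3.09% in parental libraries, and 61.5% for SYT13 in knockout and 72.5% in parental libraries. The cause of these differences between settings was not tested. Depth limits the genes under 1 CPM, such as SYT9, and those below the filter.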
